A study of Rattus norvegicus with 32 samples.

Results

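The genes described here encode subunits of the 3 major serine/threonine phosphatases of neurons: protein phosphatase 1 (PP1), protein phosphatase 2A (PP2A) and calcineurin. They were chosen by gene symbol, and all 10 were found among the 17216 gene rows of the deposited count tables: the PP1 catalytic genes Ppp1ca, Ppp1cb and Ppp1cc, the PP1 targeting gene Ppp1r9b, the PP2A catalytic genes Ppp2ca and Ppp2cb with the scaffold gene Ppp2r1a, and the calcineurin catalytic genes Ppp3ca and Ppp3cb with the regulatory gene Ppp3r1. The material was wildtype Sprague Dawley rat hippocampus at embryonic day 18, grown as dispersed neurons for 15 days, and every neuron was labelled pyramidal. Each of 16 neurons gave a soma library and a dendrite library, aspirated with separate micropipettes, and polyadenylated RNA went through 3 rounds of linear amplification before sequencing. No treatment was applied, and the only contrast is dendrites against the soma of the same cell, so the question is where in the neuron these mRNAs lie and how much they differ from cell to cell.

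As background, these phosphatases remove the phosphates that kinases such as protein kinase A and CaM kinase II put on receptors, channels and scaffolds. Calcineurin is opened by calcium and calmodulin, and in hippocampal neurons a modest calcium rise is known to act through calcineurin and PP1 to weaken synapses. PP1 has no fixed target of its own and is placed by partner proteins such as spinophilin, while PP2A is assembled from a catalytic subunit, a scaffold and an exchangeable regulatory subunit.

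Soma libraries held 878125 to 24721811 gene counts and dendrite libraries 229149 to 24439768. Levels are given as CPM, counts scaled to an equal gene count total per library, a relative measure: less mRNA of a gene and more of all others cannot be told apart. The dendrites of neuron 20 stood apart. Their 10 phosphatase genes summed to 129 CPM, against at least 2598 CPM in each of the other 15 dendrite libraries. That library had 10 or more counts for 2479 genes, and 84.7% of all 4916 tested genes lay below their dendrite median in it, against 33.6% to 66.5% elsewhere. Scaled by the trimmed mean of M-values (TMM), which the tests and all log2 CPM values below use, its factor was 0.159, and the 10 genes summed to 809 CPM. Neuron 25 had the fewest counts in either compartment, and the somata of neurons 7, 8 and 9 each resembled the dendrites of another of these 3 more than their own, so fits were repeated without neurons 20 and 25 and without neurons 7, 8 and 9. Of the 9 pyramidal markers among the rows, 4 reached 10 counts in 8 or more soma libraries and 5 in as many dendrite libraries. Of the 15 astrocyte markers, 5 did so in soma and 7 in dendrites, and their sums had medians of 345 and 459 CPM. By contrast, 8 of 9 microglial markers were at 0 in every soma library and 6 in every dendrite library. Inhibitory neuron markers, which a pyramidal neuron should lack, summed to a median of 60.9 CPM in soma but reached 13314 CPM in 1 soma library, and to a median of 66.5 CPM and at most 3141 CPM in dendrites.

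The 3 PP1 catalytic genes encode closely related enzymes from separate loci. Their promoters are shown because Ppp1ca and Ppp1cc varied together across somata (Spearman 0.62, and 0.56 without neuron 20). Ppp1cb had -0.26 with Ppp1ca and -0.29 with Ppp1cc. The pair of Ppp1ca and Ppp1cc was picked as the highest of 45 across somata, and it had 0.082 across dendrites. Each stretch runs from 250 bases before to 50 bases after the annotated start of the gene (RefSeq, build GRCr8), 5′ to 3′ on the strand of the gene. Capitals mark GC boxes, GGGCGG on either strand; neighbouring matches may touch or overlap. Ppp1ca lies at chr1:210914326-210914625 on the plus strand, Ppp1cb at chr6:29712786-29713085 on the minus strand and Ppp1cc at chr12:40061252-40061551 on the minus strand.
Ppp1ca: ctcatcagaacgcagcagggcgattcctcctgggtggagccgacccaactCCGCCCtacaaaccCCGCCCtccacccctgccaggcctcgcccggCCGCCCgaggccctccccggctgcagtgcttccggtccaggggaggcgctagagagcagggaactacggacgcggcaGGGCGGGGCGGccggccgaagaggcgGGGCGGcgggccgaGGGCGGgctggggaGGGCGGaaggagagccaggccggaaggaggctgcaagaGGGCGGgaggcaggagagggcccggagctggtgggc
Ppp1cb: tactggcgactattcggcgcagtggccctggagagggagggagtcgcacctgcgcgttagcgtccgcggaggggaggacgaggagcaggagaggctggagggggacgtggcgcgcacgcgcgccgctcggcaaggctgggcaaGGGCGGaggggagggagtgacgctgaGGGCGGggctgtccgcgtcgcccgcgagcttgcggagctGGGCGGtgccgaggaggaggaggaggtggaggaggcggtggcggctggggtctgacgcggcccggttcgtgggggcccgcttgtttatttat
Ppp1cc: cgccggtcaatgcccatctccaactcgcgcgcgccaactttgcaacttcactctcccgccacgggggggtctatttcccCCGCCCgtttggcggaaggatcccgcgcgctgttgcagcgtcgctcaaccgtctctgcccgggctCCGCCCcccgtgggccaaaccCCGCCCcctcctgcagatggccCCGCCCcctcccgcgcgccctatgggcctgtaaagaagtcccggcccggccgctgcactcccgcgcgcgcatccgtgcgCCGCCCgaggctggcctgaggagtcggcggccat
Ppp1ca held 9 GC boxes, Ppp1cc 5 and Ppp1cb 3, and 33.1% of 33469 promoters of this length held at least 1. The GC content was 75% in the window of Ppp1ca, 72.3% in Ppp1cc and 72% in Ppp1cb, against a median of 51.7% over all promoters. A link between these boxes and the levels was not tested. None of these 3 windows matched the CCAAT box by its letters CCAAT, the TATA box by TATAAA, the cAMP response element TGACGTCA or the E-box CACGTG on either strand. Promoters were matched for 9 of the 10 genes. Among them all but that of Ppp1r9b held a GC box. The cAMP response element occurred, of these 9, in that of Ppp2ca alone, and in 1.83% of all promoters. These matches describe the letters in a window and do not mark bound sites.

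Ppp1ca, which encodes the alpha catalytic subunit of PP1, was present in all 32 libraries with at least 10 counts. In soma it ranged from 4.38 CPM in neuron 20 through a median of 147 CPM to 523 CPM in neuron 9. In dendrites it ranged from 3.95 CPM, again in neuron 20, through a median of 123 CPM to 465 CPM in neuron 7. On the CPM scale neuron 20 was thus lowest in both compartments, and the ranges of the compartments overlapped almost wholly. Its dendrite value rests on 17 counts in the library with a TMM factor of 0.159, where 84.7% of tested genes lay below their median. It therefore cannot be read as a low level of Ppp1ca in particular. The log2 fold change of dendrites over soma was -0.30 ± 0.75 (SE, 16 neurons), with a higher level in dendrites in 6 neurons.

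Ppp1cb, which encodes the beta catalytic subunit, was high in most libraries and nearly absent from a few. Its soma values ran from 0 CPM in neuron 28 through a median of 402 CPM to 2187 CPM in neuron 26. Its dendrite values ran from 1.22 CPM in neuron 14 through a median of 440 CPM, with the highest, 1431 CPM, in neuron 23. The low libraries were mismatched within cells, and they also had 10 or more counts for few genes. The soma of neuron 28 had 2974 such genes, the soma of neuron 21 3652 and the dendrites of neuron 14 3012. Of all tested genes, 66.9%, 59.8% and 66.5% lay below their compartment median in them. The dendrites of neuron 22, with 2707 such genes, had 1158 CPM of Ppp1cb. Whether the gaps are particular to Ppp1cb was not tested. The soma of neuron 28 had 0 counts, which allows up to 0.378 CPM, while its dendrites had 390 counts (272 CPM). The soma of neuron 21 had 3 counts and its dendrites 1232 counts (435 CPM). Neuron 14 had the opposite arrangement, with 15522 counts in soma (682 CPM) and 15 counts in dendrites. The log2 fold change was 0.22 ± 1.01 (SE), with dendrites higher in 8 of 16 neurons.

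Ppp1cc, which encodes the gamma catalytic subunit, also had gaps in single libraries. They lay in the dendrites of neuron 14, as for Ppp1cb, and in the soma of neuron 27. The soma of neuron 20 had only 4 counts (0.648 CPM). In neuron 18 the dendrites were low, at 4.61 CPM against 242 CPM in soma. In soma it ranged from 0 CPM in neuron 27 through a median of 241 CPM to 1311 CPM in neuron 28. In dendrites it ranged from 0 CPM in neuron 14 through a median of 135 CPM to 1616 CPM in neuron 11. The soma of neuron 27 had 0 counts in a deep library, which allows up to 0.180 CPM, and its dendrites had 1890 counts (77.3 CPM). The dendrites of neuron 14 had 0 counts, which allows up to 0.243 CPM, and its soma 10044 counts (442 CPM). Each floor lies far below the level in the partner library, and the cause of the 0 counts was not tested. The somata of neurons 27 and 20 also had few genes at 10 or more counts, 3343 and 3100. The dendrites of neuron 18 had 5030. Dendrites over soma, the log2 fold change was -0.36 ± 1.45 (SE), with dendrites higher in 7 of 16 neurons, and was -0.89 without neurons 7, 8 and 9. Limits of this kind cover counting error only, since amplified reads without molecular identifiers are not independent molecules.

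**Figure D1:**
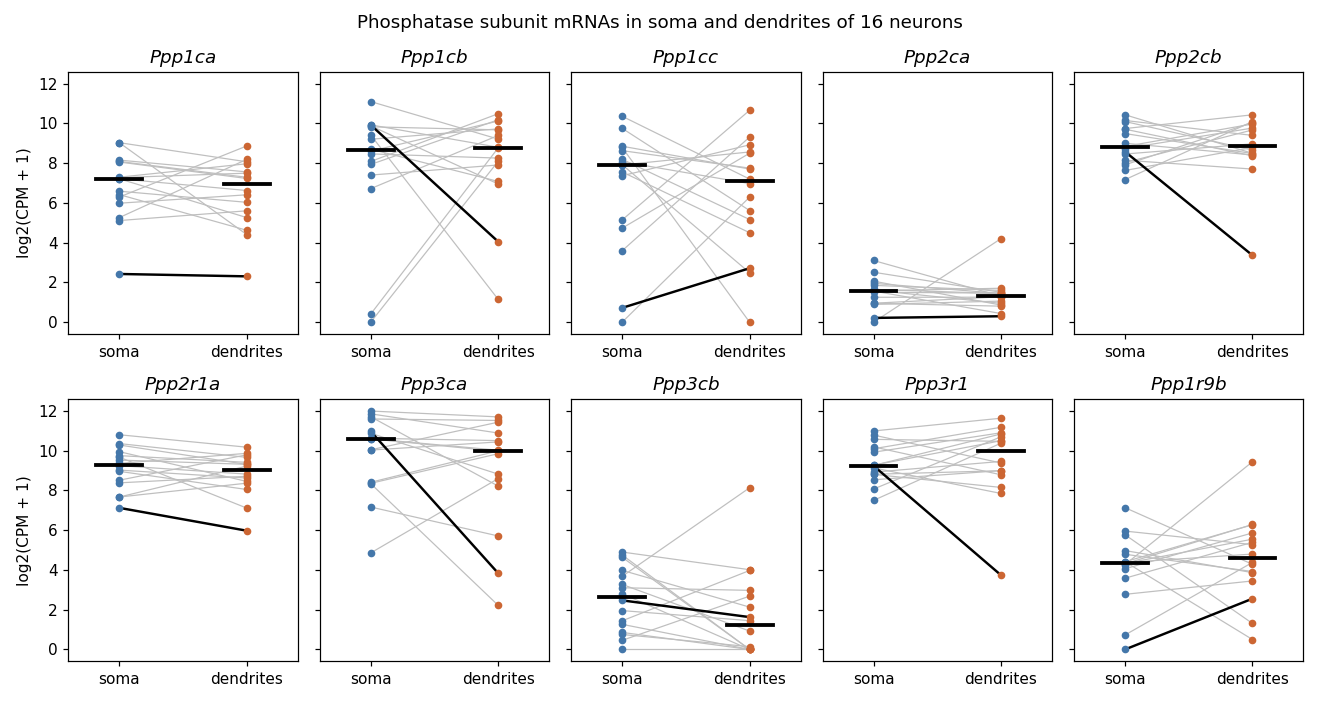
Level of each gene as log2(CPM + 1) in the soma (blue) and dendrites (orange) of 16 neurons, with a line joining the libraries of 1 neuron, a bar at the median and neuron 20 in black. The ranges of the compartments overlap for every gene, single libraries near 0 occur for Ppp1cb and Ppp1cc, and Ppp2r1a and Ppp2cb keep narrow bands apart from neuron 20.

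Within a library, the share of PP1 catalytic counts that fell on each gene does not depend on the scaling between libraries. These shares are of counts, not corrected for transcript length, so they do not rank the genes by abundance, and the gene with the largest share of counts serves only to compare libraries. Ppp1cb took 51.6 ± 30.2% of these counts in soma and 54.8 ± 25.99% in dendrites (SD, n = 16 each). The mean difference within neurons was 3.24 ± 37.5 percentage points (SD), positive in 9 of 16 neurons. Ppp1cc took 26.97 ± 20.5% and 24.9 ± 22.7%, and Ppp1ca 21.45 ± 18.8% and 20.3 ± 23.03%. With 1 neuron left out at a time, the mean difference ran from -0.348 to 7.39 points for Ppp1cb, from -6.31 to 1.26 for Ppp1cc and from -7.02 to 3.53 for Ppp1ca, so none kept its sign. No gene's share thus shifted between compartments by an amount near the spread between neurons.

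The composition nevertheless differed sharply from library to library. Ppp1cb had the largest share of PP1 catalytic counts in 11 of 16 soma and 13 of 16 dendrite libraries, and led in both libraries of 8 neurons. Ppp1cc led in 3 soma and 2 dendrite libraries and Ppp1ca in 2 soma libraries and 1 dendrite library, and neither led in both libraries of any neuron. In neuron 11, Ppp1cc had 14.3% of the counts in soma (95% exact binomial interval 13.1% to 15.6%) and 75.3% in dendrites (74.9% to 75.7%). In neuron 14, Ppp1ca had 11.6% in soma (11.2% to 11.98%) and 98.8% in dendrites (98.0% to 99.3%). In neuron 21, Ppp1ca had 78.6% in soma (76.1% to 81.0%) and 7.47% in dendrites (6.46% to 8.59%). These intervals cover counting error only, since amplified reads without molecular identifiers are not independent molecules. Genes at 10 or more counts numbered 3381 in soma and 5954 in dendrites of neuron 11. They numbered 5451 and 3012 in neuron 14, and 3652 and 4330 in neuron 21. Across the 16 neurons, the share in soma and the share in dendrites had a Spearman correlation of 0.17 for Ppp1cb, -0.17 for Ppp1cc and -0.27 for Ppp1ca.

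**Figure D2:**
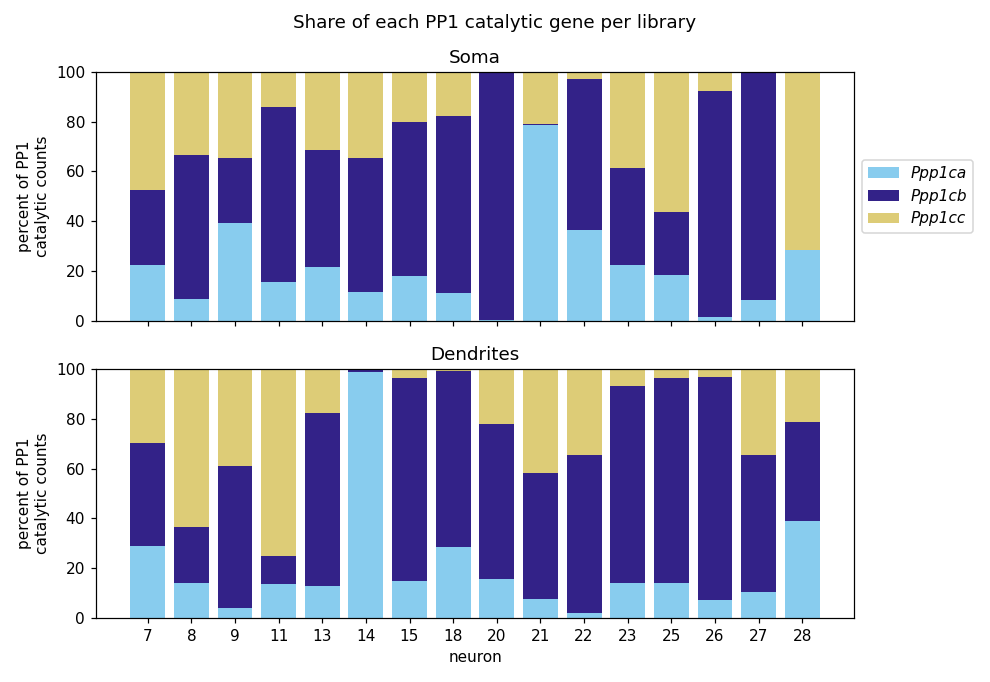
Percent of PP1 catalytic counts on Ppp1ca, Ppp1cb and Ppp1cc in the soma (top) and dendrites (bottom) of each neuron. Ppp1cb holds the largest share in 11 soma and 13 dendrite libraries, and the leading gene differs between the compartments in 8 neurons, among them neurons 11, 14 and 21.

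Ppp1r9b encodes spinophilin, an actin-binding protein of dendritic spines that holds PP1 near its synaptic substrates. Its soma values ranged from 0 CPM in neuron 20 through a median of 19.4 CPM to 139 CPM in neuron 9. Its dendrite values ranged from 0.415 CPM in neuron 15 through a median of 23.3 CPM to 694 CPM in neuron 25. That highest value rests on 159 counts in the shallowest library of the study, and the next highest dendrite library, of neuron 7, had 76.9 CPM. The log2 fold change was 0.63 ± 1.22 (SE), with dendrites higher in 10 of 16 neurons, and it was 0.12 without neurons 20 and 25.

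For PP2A, the beta catalytic gene Ppp2cb was among the steadiest of the set. In soma it ranged from 143 CPM in neuron 22 through a median of 441 CPM to 1381 CPM in neuron 15. In dendrites it ranged from 9.29 CPM in neuron 20 through a median of 471 CPM to 1378 CPM in neuron 28, and the next lowest dendrite library, of neuron 8, had 207 CPM. Apart from neuron 20 the dendrites thus covered much the same range as the somata. On the log2 scale, the fold change of dendrites over soma was -0.03 ± 0.51 (SE), with dendrites higher in 8 of 16 neurons.

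Counts on Ppp2ca, which encodes the alpha catalytic subunit, were few in every library. Soma values ranged from 0 to 7.60 CPM with a median of 1.97 CPM, and dendrite values from 0.232 to 17.5 CPM with a median of 1.45 CPM. The highest of these, in the dendrites of neuron 25, rests on 4 counts. Ppp2ca took 0.506 ± 0.385% of the counts on both PP2A catalytic genes in soma and 0.584 ± 0.772% in dendrites (SD, n = 16 each). Because the 2 genes are close paralogs and the handling of reads matching several genes is not given in the sources used here, this low count is uncertain as a level of Ppp2ca mRNA. The log2 fold change was -0.37 ± 0.74 (SE) and was -0.71 without neurons 20 and 25. At full depth, 14 soma and 9 dendrite libraries reached 10 counts. Dendrite libraries were shallower, with a median of 8.84e+06 gene counts against 1.56e+07 in soma, and detection at equal depth is given below.

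Ppp2r1a, which encodes the alpha scaffold subunit that holds PP2A together, was the least variable of the 10 genes in dendrites. Its soma values ranged from 138 CPM in neuron 20 through a median of 629 CPM to 1779 CPM in neuron 14. Its dendrite values ranged from 61.8 CPM, also in neuron 20, through a median of 523 CPM to 1152 CPM, also in neuron 14. On the CPM scale the same neurons thus held both extremes in both compartments; after TMM scaling the lowest dendrite library was that of neuron 9. Across neurons, its log2 fold change was -0.29 ± 0.41 (SE), the smallest SE of the set, and dendrites were higher in 5 of 16 neurons.

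Among the calcineurin genes, Ppp3ca, which encodes the alpha catalytic subunit, was detected at 10 or more counts in all 32 libraries. Soma values ranged from 27.9 CPM in neuron 27 through a median of 1542 CPM to 4065 CPM in neuron 21. Dendrite values ranged from 3.65 CPM in neuron 14 through a median of 1007 CPM to 3316 CPM, again in neuron 21. Besides neuron 14, the dendrites of neuron 20 (13.2 CPM) and neuron 13 (51.3 CPM) were low. Their somata were not alike: that of neuron 20 had 2003 CPM and that of neuron 13 had 142 CPM. The log2 fold change was -0.72 ± 0.61 (SE), with dendrites higher in 5 of 16 neurons, and was -0.42 without neurons 20 and 25 and -0.99 without neurons 7, 8 and 9.

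Ppp3cb, which encodes the beta catalytic subunit, was sparse. It ranged from 0 through a median of 5.27 CPM to 28.9 CPM in soma, and from 0 through a median of 1.32 CPM to 280 CPM in dendrites. At full depth, with the dendrite libraries shallower, it had 10 or more counts in 14 soma libraries and 7 dendrite libraries. In 6 dendrite libraries it had 0 counts. The dendrite maximum, in neuron 21, stood alone, since the next highest library had 15.1 CPM. Levels were higher in soma in 12 neurons, higher in dendrites in 3 and at 0 in both libraries of neuron 28. In the paired fit its log2 fold change was -1.92 ± 1.48 (SE), the farthest from 0 of the 10 genes, but its sign turned without the neuron block, to 1.15. Of the counts on both calcineurin catalytic genes, Ppp3ca had 97.5 ± 5.95% in soma and 98.2 ± 3.81% in dendrites (SD, n = 16). Its share was lowest in soma 27, at 76.3%, the soma with the lowest Ppp3ca level. The 95% exact binomial interval, 72.7% to 79.6%, covers counting error only.

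Ppp3r1, which encodes calcineurin B, the calcium-binding regulatory subunit, was present throughout. Soma values ranged from 180 CPM in neuron 27 through a median of 606 CPM to 2029 CPM in neuron 8. Dendrite values ranged from 12.3 CPM in neuron 20 through a median of 1014 CPM to 3165 CPM, again in neuron 8. Without neuron 20 the lowest dendrite value was 229 CPM, in neuron 18. The log2 fold change was 0.20 ± 0.45 (SE), with dendrites higher in 10 of 16 neurons. The regulatory and the main catalytic mRNA of calcineurin did not track each other closely: Ppp3r1 and Ppp3ca had a Spearman correlation of 0.30 across somata and 0.19 across dendrites (n = 16 libraries each), the latter 0.043 without neuron 20.

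None of the 10 genes differed between dendrites and soma by more than the spread between neurons in edgeR's quasi-likelihood test. All 10 passed the filter on low counts, 0 of 10 passed an adjusted p of 0.05, and each had an adjusted p of 0.999 over all 4916 tested genes. The background was the same, with 0 of 4916 genes called (0%). At an unadjusted p under 0.05 the test found 0 of the 10 genes and 129 of 4916 (2.62%), and the lowest unadjusted p among the 10 was 0.206, for Ppp3cb. The DESeq2 Wald test called 0 of the 10 and 403 of 4916 genes (8.2%). In limma-voom and in a sign-flip permutation test per gene, 0 genes were called in all. The smallest p of the sign-flip test was 3.05e-05, at which 1 gene alone cannot pass adjustment over 4916 genes. Its lack of calls therefore says little. A positive log2 fold change was found for 3 of the 10 genes (Ppp1cb, Ppp1r9b and Ppp3r1) and for 54.8% of all tested genes, and the medians were -0.29 and 0.13. With SEs between 0.41 and 1.48 on the log2 scale, moderate differences in either direction could not be detected for most of these genes. The sign of Ppp1cb, Ppp1cc, Ppp2cb, Ppp3cb and Ppp3r1 depended on the fit or on single neurons, and with 1 neuron left out at a time the number of positive values ran from 2 to 5, so these signs give no direction.

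**Figure D3:**
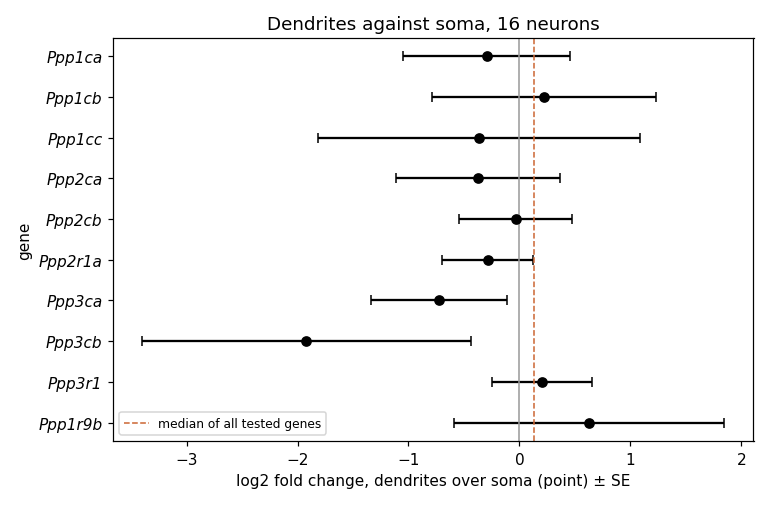
Log2 fold change of dendrites over soma (points) with its SE (bars) for each gene in the edgeR fit with neuron as a block, with the median of all tested genes as a dashed line at 0.13. The interval of 1 SE spans 0 for all genes but Ppp3ca and Ppp3cb, and 0 of the 10 passed an adjusted p of 0.05.

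Detection was compared after thinning each library to 1071293 gene counts, which left 15 neurons. At 5 or more counts, 8.13 ± 1.19 of the 10 genes were detected in soma and 8.07 ± 1.03 in dendrites (SD, n = 15 neurons). The difference, dendrites minus soma, averaged -0.067 ± 1.67 genes (-0.33 with another random seed of the thinning), with more genes in dendrites in 5 neurons, more in soma in 5 and equal numbers in 5. Ppp2cb, Ppp2r1a and Ppp3r1 were detected in both compartments of all 15 neurons, and Ppp1ca in both of 14. Ppp1cb and Ppp1cc were each detected in both compartments of 12 neurons, in soma alone in 1 and in dendrites alone in 2. Ppp3cb was detected in 7 somata and 5 dendrite samples, and Ppp2ca in 2 somata and 1 dendrite sample. The mRNAs of a PP2A catalytic subunit with its scaffold and of calcineurin B were therefore found in the dendrites of all 15 neurons at this depth. The gaps lay with Ppp3cb, Ppp2ca, Ppp1r9b and single libraries of Ppp1cb, Ppp1cc, Ppp1ca and Ppp3ca. Detection at this depth was not counted over all genes, so these numbers do not set the 10 genes apart from others.

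The SD of log2 CPM between neurons differed widely among the 10 genes. The median SD over all tested genes was 3.46 in soma and 3.22 in dendrites, and counts of scarcer genes vary more, so level has to be read beside it. Ppp2r1a had an SD of 0.96 in soma and 0.80 in dendrites, lower than all but 2.99% and 0.448% of tested genes, while its mean level exceeded that of 96.7% and 95.9% of them. Ppp2cb had SDs of 0.91 and 1.08, and Ppp3r1 0.88 and 1.42. Ppp1cb had the highest SD of the 10 genes in soma, 3.86, which exceeded that of 70.0% of tested genes, but 2.32 in dendrites, above 22.3% of them; its mean level exceeded that of 89.4% and 92.4%. Ppp1cc had SDs of 3.49 and 3.15, and Ppp3ca 1.96 and 2.504. Ppp3cb, whose mean level exceeded that of 27.97% of tested genes in soma and 5.84% in dendrites, had SDs of 2.13 and 3.28. Ppp2ca had low SDs of 1.41 and 0.97 near the counting floor.

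**Figure D4:**
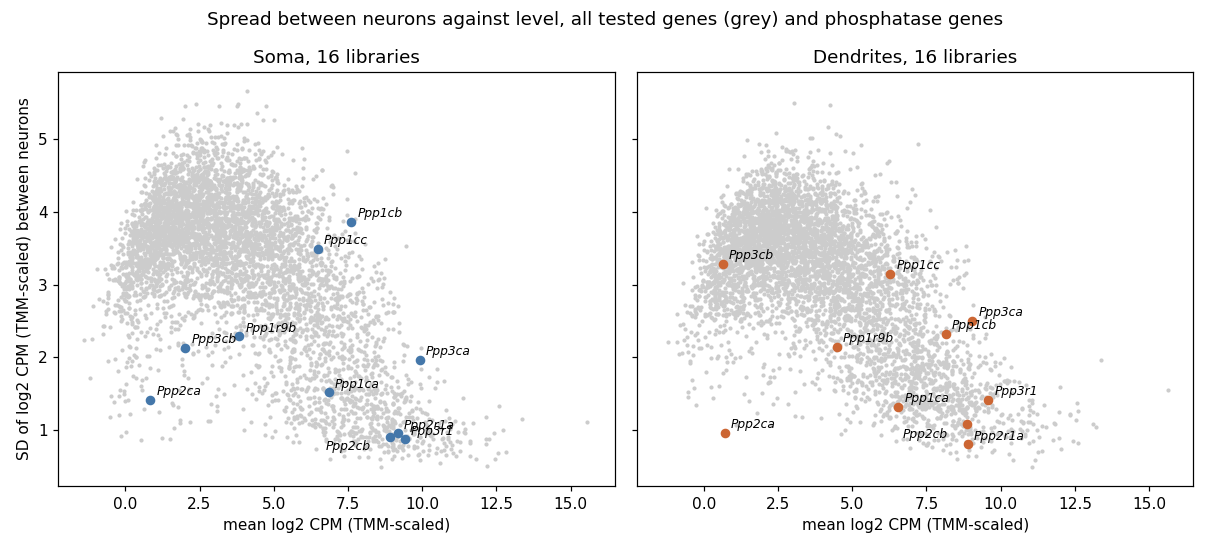
SD of TMM-scaled log2 CPM between 16 neurons (vertical axis) against mean log2 CPM (horizontal axis) for all 4916 tested genes (grey) and the 10 phosphatase genes, in soma (left) and dendrites (right). Ppp1cb and Ppp1cc have SDs of 3.86 and 3.49 in soma, whereas Ppp2r1a, Ppp2cb and Ppp3r1 lie at 0.96 or below.

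Whether a neuron with a high level in its soma also had a high level in its dendrites differed between genes. The Spearman correlation over the 16 neurons was 0.56 for Ppp2r1a and 0.43 for Ppp3ca, and between -0.28 and 0.24 for the other 8 genes. Over all tested genes the median of this correlation was 0.076, and 90% of them lay between -0.38 and 0.51. Ppp2r1a exceeded 96.7% of tested genes, Ppp3ca 91.2%. With 1 neuron left out at a time, the value for Ppp2r1a stayed between 0.46 and 0.62, and it was 0.52 without neurons 7, 8 and 9. Without these 3 neurons Ppp1ca moved from 0.19 to 0.56 and Ppp3ca to 0.57, so the order of the genes depends on them. Ppp2cb, which encodes the partner that this scaffold holds, had -0.20. The points share the library and its scaling, and cells of 1 culture or day were not identified in the labels, so these are descriptions of 16 cells.

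**Figure D5:**
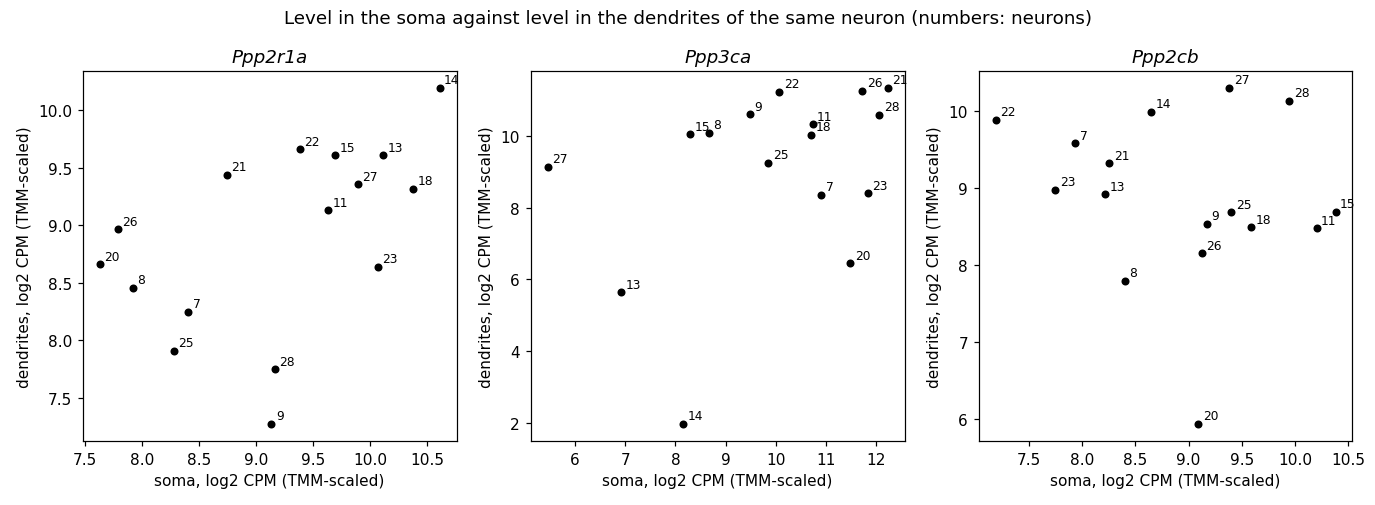
TMM-scaled log2 CPM in the dendrites (vertical axis) against the soma (horizontal axis) of the same neuron for Ppp2r1a, Ppp3ca and Ppp2cb, with each point numbered by neuron. Ppp2r1a rises from lower left to upper right (Spearman 0.56), Ppp3ca less evenly with neuron 14 far below (0.43), and Ppp2cb shows no such order (-0.20).

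Catalytic genes paired with the other subunit genes of their enzyme had correlations inside the 5th to 95th percentile of all pairs of tested genes. This range ran from -0.41 to 0.49 in soma and from -0.41 to 0.50 in dendrites. The 45 pairs among the 10 genes had a median Spearman correlation of -0.0088 in soma and 0.032 in dendrites, against 0.044 and 0.053 over all pairs of tested genes. Ppp2cb and its scaffold Ppp2r1a had 0.056 across somata and 0.27 across dendrites. Ppp2ca and Ppp2r1a had 0.37 and 0.13, and Ppp3cb and Ppp3r1 -0.15 and -0.32. With Ppp1r9b, Ppp1cc had 0.40 across somata and 0.041 across dendrites, Ppp1ca 0.38 and -0.13, and Ppp1cb -0.23 and -0.12. The highest soma pair was Ppp1ca with Ppp1cc at 0.62, but across dendrites the same pair had 0.082. Ppp3r1 with Ppp1r9b had 0.50 across somata and 0.22 across dendrites. Without neuron 20 the soma order changed, with 0.62 for Ppp3r1 and Ppp1r9b and 0.56 for Ppp1ca and Ppp1cc. The lowest pair was Ppp3cb with Ppp1r9b across dendrites, at -0.57, with Ppp3cb at 0 in 6 of those libraries.

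Among all other tested genes, those most like each phosphatase gene over the 32 libraries, centred within compartments, were taken where the Spearman correlation reached 0.6. For Ppp3ca these were Atp1b2, a sodium-potassium ATPase subunit gene, at 0.71, the GABA-A receptor gene Gabra5 at 0.70 and Smc6, of a DNA repair complex, at 0.65. For Ppp1cb they were the RNA ligase gene Rtcb at 0.71 and Rab9b at 0.66, and for Ppp2cb the actin-severing cofilin gene Cfl1 at 0.66. Ppp2r1a was closest to the growth cone gene Basp1 at 0.62. Ppp3r1 was closest to Apoe at 0.66 and Ppp1r9b to Mt3 at 0.66, both of which are on the astrocyte marker list. The 15 astrocyte markers summed to between 65.8 and 818 CPM in somata and between 120 and 2771 CPM in dendrites, and their part in these values was not tested. The other genes at 0.6 or more had values of 0.60 to 0.64. They were Ubac2 and Gbf1 for Ppp1ca, Pqbp1, Gpr158 and Mtg2 for Ppp1cc, and Arpc3, Glrx5 and Rps9 for Ppp2ca. Wdr6 for Ppp2r1a and Lamtor2 and RGD1309036 for Ppp1r9b were also among them. For Ppp3cb no gene reached 0.6. All these genes were picked as the up to 3 highest values among all tested genes, so the values are high by choice.

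The wider phosphatase network was read from lists of regulators and partners. Of 29 PP1 regulatory genes among the rows, 18 were tested, and 0 were called in either direction, with 10 log2 fold changes above and 8 below 0 and a median of 0.35. Of 24 PP2A regulatory genes 19 were tested and 0 called, with 10 above and 9 below 0 and a median of 0.088. The 6 tested calcineurin partners had 3 on either side and a median of -0.12, and the 7 tested genes of other phosphatases of the same family had 3 above and 4 below and a median of -0.40. The protein kinase A list held subunit genes of the kinase that opposes these enzymes at many sites, with an inhibitor gene and anchor genes. Its 8 tested genes had 5 log2 fold changes above and 3 below 0 and a median of 0.61. The kinase subunit genes Prkaca, Prkar1a, Prkar1b and Prkar2b had 0.33, -1.24, -0.11 and -0.12. The inhibitor gene Pkig and the anchor genes Akap9, Akap11 and Akap12 had 0.90, 1.14, 0.89 and 5.84. The median over all tested genes was 0.13. Across these 5 lists, 1 of 58 tested genes (1.72%), Akap12, had an unadjusted p under 0.05, a smaller share than the 2.62% of all tested genes. DESeq2 called 5 of the 58 (8.62%), near its 8.2% over all tested genes. The genes named next are those with the smallest p in each list, and these shares give no result about the lists.

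Akap12 encodes gravin, an anchor for protein kinase A. It had a median of 1.12 CPM in soma, where values ran from 0 to 503 CPM, and of 129 CPM in dendrites, where they ran from 0.532 to 1286 CPM. Its log2 fold change was 5.84 ± 1.83 (SE), with dendrites higher in 12 of 16 neurons, and edgeR gave it an unadjusted p of 0.00359 and, over all genes, an adjusted p of 0.999. In the DESeq2 Wald test its adjusted p was 1.43e-08. Markers of endothelial, mural and fibroblast cells, in which Akap12 is also known, summed to a median of 8.66 CPM in soma and 94.0 CPM in dendrites. These sums rest on few genes. Of the 12 markers, 2 reached 10 counts in 8 or more soma libraries and 2 in as many dendrite libraries. In every soma library 2 were at 0, and in every dendrite library 3. The part of such RNA in the Akap12 counts was not tested.

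Among PP1 regulators, those with the smallest p included Phactr1, an actin- and PP1-binding gene, with a log2 fold change of 2.40 ± 1.19 (SE), and Ppp1r15b, which directs PP1 to the translation factor eIF2, with 3.79 ± 1.96. Both were higher in dendrites in 11 of 16 neurons. Ppp1r21 stood at -4.18 ± 2.36 and the inhibitor gene Ppp1r11 at -1.96 ± 1.31. DESeq2 called Phactr1 (adjusted p = 0.00761), Ppp1r15b (0.00154) and Ppp1r21 (0.00115), and edgeR none of them (adjusted p = 0.999). For Ppp1r15b, 10 counts were reached by 8 of the somata and 11 of the dendrite samples.

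Of the remaining lists, Ppp3cc, the gamma catalytic gene of calcineurin, had medians of 0.247 CPM in soma and 12.8 CPM in dendrites and a log2 fold change of 3.25 ± 2.19 (SE), the dendrite level being the higher one in 11 of 16 neurons. Cabin1, which encodes a calcineurin-binding inhibitor, stood at 2.72 ± 1.88, and the calcineurin substrate gene Dnm1, for the vesicle-fission protein dynamin, at -0.34 ± 0.79. The PP2A scaffold paralog Ppp2r1b stood at -2.02 ± 2.03 and the neuronal regulatory gene Ppp2r2b at -0.44 ± 0.59. Ppp4r2 and Ppp5c stood at -1.73 ± 1.24 and -1.64 ± 1.29, the latter lower in dendrites in most neurons and higher in 3 of 16. Ppp4r1 stood at 3.88 ± 3.27, with a DESeq2 adjusted p of 0.0207. By edgeR the adjusted p over all genes was 0.999 for each.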

How the data were processed

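The values deposited by the authors are whole-number counts per gene symbol, 1 table per library, taken as raw counts because their totals differ. The submitters' processing notes name the build rn6. Neither the aligner and annotation nor the use of strand and of reads matching several genes in counting is given in the sources used here. The 92 ERCC spike-in rows were left out of depth and tests.

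The tests ran in edgeR 4.0.16 (R 4.3.3). The function filterByExpr, with compartments as groups and a minimum count of 10, kept 4916 genes. Libraries were scaled by TMM, and robust glmQLFit with glmQLFTest compared dendrites with soma. The neuron was a block, since the series text gives each numbered pair as 1 cell. Benjamini-Hochberg adjustment covered all tested genes, at a threshold of 0.05. Each SE is the absolute log2 fold change divided by the root of F. To check the pairing, compartment-centred profiles were correlated: the mean Spearman value was 0.0678 within neurons and -0.00054 between them, and 7 of 16 somata matched their own dendrites best. The fit was also run on simulated counts without neuron effects, which does not measure its power in these data.

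CPM values use gene count totals, and log2 CPM values (prior count 2) are TMM-scaled. Detection used counts thinned at random to 1071293 per library, and paralog shares needed 20 counts. Alternatives used DESeq2 1.42.0 and limma 3.58.1. The genes and lists were chosen with earlier results of these data known. Named were the 10 genes, up to 4 tested genes per list with the smallest p, and genes alike at 0.6 or more. Neurons came from several cultures, and which shared one is not given. Promoters are from RefSeq (GRCr8).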

Additional observations from a re-analysis of the deposited data

Results flagged for a closer look

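The 92 ERCC spike-in rows entered no comparison. They held counts in each of the 32 libraries. Their median share of a library's counts was 0.482%, and the shares ran from 0.0605% to 4.33%. No library without spike-ins was used here, so these shares were set against 0.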

How the results depend on the processing

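None of the 10 genes was called under any alternative that tested it: other scalings, filters and tests, no replicate block, and fits without neurons. The stricter filter left Ppp2ca and Ppp3cb untested. Of 258 fold changes of these genes recomputed under alternatives, 238 kept their sign and 20 turned. With no replicate block, the log2 fold change was -0.32 for Ppp1cb, 0.000159 for Ppp2cb and 1.15 for Ppp3cb. Ppp2cb was 0.0054 with DESeq2 size factors, 0.014 with library totals, 0.0065 in the DESeq2 Wald test and 0.29 without neurons 20 and 25. With limma-voom, Ppp1cb was -0.049 and Ppp1cc 0.043. Leaving out 1 neuron at a time, values ran from -0.091 to 0.54 for Ppp1cb, from -0.85 to 0.092 for Ppp1cc, from -0.21 to 0.21 for Ppp2cb and from -0.021 to 0.45 for Ppp3r1, and the cause was not tested. Over all genes, 1 was called with no filter on low counts and 403 by the DESeq2 Wald test, against 0. The neuron block changed no call. The detection difference ran from -0.29 to 0.21 genes when single neurons were left out, was -0.33 with another thinning seed or with 1 or 20 counts required, and -0.44 at full depth. Shares moved by less than 1 SD between neurons; the Ppp2ca share difference turned to -0.264 points without neurons 20 and 25. The spread between neurons and, for Ppp2ca and Ppp3cb, low counts limit what can be detected.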

Other observations

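Several well-known partners of these phosphatases had few counts in these libraries. The annotation and the handling of reads matching several genes are not given in the sources used here. Low counts, also those of Prkacb below, are therefore uncertain as levels of mRNA. The following genes were picked from the lists after their values were seen. Ppp1r1b, which encodes DARPP-32, an inhibitor of PP1 known from striatal neurons, reached 10 counts in 2 soma libraries and 1 dendrite library, with medians of 0 CPM. Ppp1r9a, which encodes neurabin, a relative of spinophilin, reached them in 1 soma library and 2 dendrite libraries, with a highest level of 49.1 CPM. Akap5, which encodes the anchor that holds calcineurin and protein kinase A at the postsynaptic membrane, reached them in 1 soma library and 3 dendrite libraries. Ppp3r2, a calcineurin B gene known from testis, had 0 counts in all 32 libraries.

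Other members of the same lists were high in both compartments. Ensa, which encodes a PP2A inhibitor, had medians of 650 CPM in soma and 789 CPM in dendrites. The protein kinase A genes Prkaca and Prkar1b were at 10 or more counts in each of the 32 libraries, with medians of 108 and 105 CPM for the catalytic gene Prkaca and of 275 and 309 CPM for the regulatory gene Prkar1b. By contrast, the catalytic paralog Prkacb reached 10 counts in 0 soma libraries and 1 dendrite library. Rcan2, which encodes a regulator of calcineurin, had medians of 218 CPM in soma and 27.96 CPM in dendrites, but a log2 fold change in edgeR's test of only 0.03 ± 1.27 (SE).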
